A study of Mus musculus with 12 samples.

Results

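The genes described here are 9 genes of oligodendrocytes and their myelin, *Mbp*, *Mog*, *Mag*, *Mobp*, *Cnp*, *Cldn11*, *Mal*, *Olig1* and *Sox10*, chosen by name among the 29608 gene names on an Agilent mouse array. They are read by 13 of the 39429 probes. Hippocampal RNA of 12 female mice, all about 12 weeks old and in diestrus, was hybridized to 6 two-colour arrays. Lupus-like disease develops in the 4 MRL/lpr mice, which lack a working *Fas*, the gene of a death receptor, through the lpr mutation. The 4 Fn14ko mice carry the same mutation and in addition a knockout of *Tnfrsf12a*, the gene of the TWEAK receptor Fn14, which was backcrossed onto MRL/lpr. The 4 MRL/+ mice (MRL/MpJ) are the non-lupus background and were purchased, whereas the MRL/lpr and Fn14ko mice were bred as littermates. The Fn14ko mice are called mice labelled Fn14ko below, because the *Tnfrsf12a* probe gave signal well above background in each of the 4. Its level on the scale of the 10 samples described below was 0.603 to 0.771 in them. It was 1.66 and 1.16 in MRL/lpr replicates 1 and 2 and 1.09 to 1.98 in MRL/+. A sample description also names the cortex, while the source and tissue labels give the hippocampus.

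Oligodendrocytes wrap axons of the central nervous system in myelin, a stack of membrane held together by a small set of very abundant proteins. *Mbp* and *Mobp* encode basic proteins that hold the cytoplasmic faces of the membrane together. *Mog* and *Mag* encode immunoglobulin-like proteins on the outer and the axon-facing surface of the sheath, and *Cnp* an enzyme of its cytoplasmic channels. *Cldn11* encodes the claudin of the myelin tight junctions, and *Mal* a lipid-raft protein of late myelin. *Olig1* and *Sox10* encode transcription factors of the oligodendrocyte lineage. In the hippocampus, myelin lies mainly along its fibre tracts, and deeper brain regions and the corpus callosum hold more of it.

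The probes decide what was measured, since each gene but *Mbp* and *Mobp* is read by 1 probe of 60 bases. The *Mog* probe lies on chromosome 17 from 37148277 to 37148336 and the *Mal* probe on chromosome 2 from 127458976 to 127459035, both on the minus strand (mm9). The 3 *Mobp* probes lie on chromosome 9 from 120077006 to 120077065, from 120078400 to 120078459 and from 120085150 to 120085209, so the first and the last sample distant stretches of the gene. No mm9 gene models were used here, so exons are not given. Below are the first *Mobp* probe in full and the 30 bases at the 3′ end of the last *Mobp* probe and of the *Mal* and *Mog* probes. They are shown because the results turn on these probes, with the polyadenylation hexamers AATAAA and ATTAAA in capitals.
Mobp, first probe: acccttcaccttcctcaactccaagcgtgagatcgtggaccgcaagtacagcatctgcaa
Mobp, last probe: aacaagaactcAATAAAtacttgctgactg
Mal: tcaatgtttcagatttttaatcATTAAAag
Mog: caactgtctttcctcagctccttcctctaa
One of these hexamers, searched on the probe strand alone, was present in 6 of the 13 probes, including those of *Mag*, *Mal*, *Cldn11*, *Olig1* and *Sox10*. The first and the middle *Mobp* probe held none, and neither did the *Mog* probe nor the 3 *Mbp* probes.

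The *Sox10* protein binds a motif that contains the letters ACAAAG. RefSeq promoters of build GRCm38.p6 were given for 6 of the 9 genes, 8 promoters in all, and the 250 bases before each start were searched on both strands. The *Mobp* promoter, chromosome 9 from 120149492 to 120149741 on the plus strand, is shown because it held the motif 6 times, each time on the minus strand and so printed as CTTTGT in capitals.
Mobp promoter: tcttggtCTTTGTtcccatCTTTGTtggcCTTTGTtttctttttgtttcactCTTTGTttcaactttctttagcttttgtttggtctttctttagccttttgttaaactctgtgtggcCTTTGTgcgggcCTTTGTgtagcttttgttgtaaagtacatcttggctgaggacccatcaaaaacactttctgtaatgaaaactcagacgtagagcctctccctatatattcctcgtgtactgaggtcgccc
It was the only 1 of 32841 promoters with as many, and 16.5% of all promoters held the motif at least once. The *Cnp* promoter and 2 overlapping *Mag* promoters held it 1 time each, and the other *Mag* promoter and those of *Mal*, *Mog* and *Cldn11* held none. The motif was chosen after this promoter had been read. No promoter of *Mbp*, *Olig1* or *Sox10* was analysed here.

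Signal strength differed between arrays in a way that touches every gene below. MRL/lpr replicates 3 and 4 shared an array, here called the weak array, where foreground exceeded background by a median factor of 1.93 and 1.73. The factor was 4.42 to 12.6 in the remaining 10 samples. Across genes, these 2 samples correlated with those of other arrays with r of 0.263 to 0.492, whereas samples of the other 5 arrays correlated with each other with r of 0.857 to 0.994. The Cy5 samples of MRL/+, replicates 2 and 4, stood apart in another way, with a median foreground of 208 and 211 in the negative-control spots, compared with 33.2 to 90.6 elsewhere. Both arrays of a phenotype lay on 1 slide, so slide and phenotype cannot be told apart. Each comparison is therefore given with all 12 samples, over 8864 genes with a spot valid in all of them, and with the 10 samples outside the weak array, over 17936 genes. Levels are multiples of the channel median over the spots kept, so those of the 12-sample and the 10-sample sets lie on different scales. All 9 genes passed both filters, with 11 of their 13 probes in the 12-sample set and all 13 in the 10-sample set.

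The labelled tissue was checked against markers of hippocampal neurons. Over the 10 samples the 8 measured markers of 10 summed to a level of 40.9 and 45.4 in MRL/lpr. The sum was 20.6 to 32.3 among mice labelled Fn14ko and 18.1 to 20.6 in MRL/+. Of these 8 markers, 6 were higher in MRL/lpr than in MRL/+ and 7 higher than in the mice labelled Fn14ko, with none lower. Of all genes, 6.11% and 4.09% were called higher in these comparisons. *Lct*, a marker of dentate granule cells, differed by 2.78 on the log2 scale between MRL/lpr and MRL/+ (adjusted p = 7.78e-05, limma). The summed level of 8 striatal markers was 14.5 and 16.0 in MRL/lpr, 36.6 to 104 among mice labelled Fn14ko and 16.0 to 33.8 in MRL/+. The choroid plexus list, with 7 of its 8 genes measured, summed to 44.3 and 143 in MRL/lpr, 2.33 to 21.8 among mice labelled Fn14ko and 3.89 to 6.78 in MRL/+. The hippocampal genes well above background numbered 10 of 10 in both MRL/lpr samples, 7 to 10 with the label Fn14ko and 3 to 10 in MRL/+. Of all probes, 29.6% and 31.8% were well above background in the Cy5 samples of MRL/+, compared with 51.5% to 68.1% in the rest of the 10 samples. These counts therefore do not compare the tissue between phenotypes. Markers of other brain regions thus moved with phenotype in the same samples as the myelin genes, and their part in the results below was not tested. In such bulk samples, fewer oligodendrocytes and less RNA per oligodendrocyte cannot be told apart.

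The first comparison asks how the lupus-prone mice differ from their background strain. With all 12 samples, *Mog* was higher in MRL/lpr than in MRL/+ and the other 8 genes did not pass the threshold. The *Mog* level was 0.417, 0.318, 0.943 and 1.08 in MRL/lpr replicates 1 to 4 and 0.279, 0.210, 0.240 and 0.173 in MRL/+. The mean was 0.689 ± 0.378 (SD, n = 4) in MRL/lpr and 0.225 ± 0.0451 (SD, n = 4) in MRL/+. Every MRL/lpr sample lay above every MRL/+ sample, and the 2 samples of the weak array were the highest of all. The log2 fold change was 1.45 (SE 0.39, adjusted p = 0.0428, limma), and the two-sided exact permutation test gave p = 0.0286, the smallest it can give with 4 against 4. The 1 gene called of 9 stands beside 9.17% of the 8864 genes called in this comparison (3.46% higher and 5.71% lower), and the 1 gene whose groups did not overlap stands beside 16.1%. The median of the 9 log2 fold changes was 0.03, compared with -0.01 over all genes tested.

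The *Mog* call was not stable to leaving out single samples. It held without MRL/lpr replicate 1 (log2 fold change 1.71, adjusted p = 0.0137) and without MRL/lpr replicate 2 (1.73, adjusted p = 0.0160). Those fits called 3334 and 3467 of 8864 genes, compared with 813 with all 12 samples. The *Mog* call was lost without MRL/lpr replicate 3 (1.27, adjusted p = 0.104), MRL/lpr replicate 4 (1.07, adjusted p = 0.0870) and each of the 8 other samples, where the log2 fold change was 1.38 to 1.51 and the adjusted p 0.0605 to 0.130. Without MRL/lpr replicate 3 and without replicate 4, 298 and 435 genes were called. A fit that took the array as a random block gave *Mog* an adjusted p of 0.294. The *Mog* probe was not well above background in MRL/+ replicates 2 and 4, the Cy5 samples with high negative-control signal.

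Without the weak array, *Mog* and *Mal* were both higher in MRL/lpr than in MRL/+. The *Mal* level in this set was 22.6 and 22.1 in MRL/lpr and 10.2, 3.86, 9.28 and 6.71 in MRL/+. The *Mal* groups did not overlap, and the log2 fold change was 1.67 (SE 0.26, adjusted p = 0.00242, limma), a 3.17-fold difference. The *Mog* level was 1.57 and 1.20 in MRL/lpr and 1.07, 0.573, 0.948 and 0.535 in MRL/+, again without overlap. Its log2 fold change was 0.88 (SE 0.19, adjusted p = 0.0119). Both MRL/lpr samples of this set come from 1 array, so array and phenotype cannot be told apart for them. The estimated correlation within arrays was 0.71 over the 12 samples and -0.26 over the 10. With the array as a random block in the 10 samples, a fit chosen after the data had been seen and whose negative correlation narrows errors between arrays, the adjusted p was 0.000423 for *Mal* and 0.00274 for *Mog*, and *Mag* passed as well (0.51, adjusted p = 0.0475). That random-block fit called 5135 of the 17936 genes in this comparison. Within each dye, with 1 MRL/lpr sample against 2, *Mal* was higher on the log2 scale by 1.21 in Cy3 and 2.12 in Cy5. *Mog* was higher by 0.64 in Cy3, and its Cy5 difference is not given because the MRL/+ samples of that dye were not well above background. These 2 genes of 9 stand beside 15.7% of 17936 genes called (6.11% higher and 9.61% lower), and the 4 genes whose groups did not overlap (*Mog*, *Mag*, *Mobp* and *Mal*) beside 34%. The median of the 9 was 0.37 and that of all genes -0.10.

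*Mal* levels differed between the 2 MRL/lpr arrays. In the 12-sample set its level was 5.98 and 5.88 in MRL/lpr replicates 1 and 2 but 1.35 and 1.77 in replicates 3 and 4, compared with 1.42 to 2.66 in MRL/+. The MRL/lpr mice thus held both the highest levels of any phenotype and the lowest, and the log2 fold change was 0.53 (SE 0.48, adjusted p = 0.419). *Olig1* had the same split, at 3.17 and 4.38 in replicates 1 and 2 and 0.808 and 1.13 in replicates 3 and 4, while MRL/+ lay between 3.24 and 5.74. Its log2 fold change was -1.19 (adjusted p = 0.105) with 12 samples and -0.05 (adjusted p = 0.894) with 10. *Cnp* split the other way, at 2.35 and 2.27 in replicates 1 and 2 and 5.14 and 11.2 in replicates 3 and 4, with a log2 fold change of 0.90 (adjusted p = 0.195) that was 0.21 (adjusted p = 0.609) in the 10 samples. Leaving out MRL/lpr replicate 1 alone brought *Cnp* (1.30, adjusted p = 0.0444) and *Olig1* (-1.53, adjusted p = 0.0288) past the threshold, and leaving out replicate 2 did so for *Olig1* (-1.59, adjusted p = 0.0235). Those fits called 3334 and 3467 of all 8864 genes, compared with 813 with all 12 samples.

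**Figure D1:**
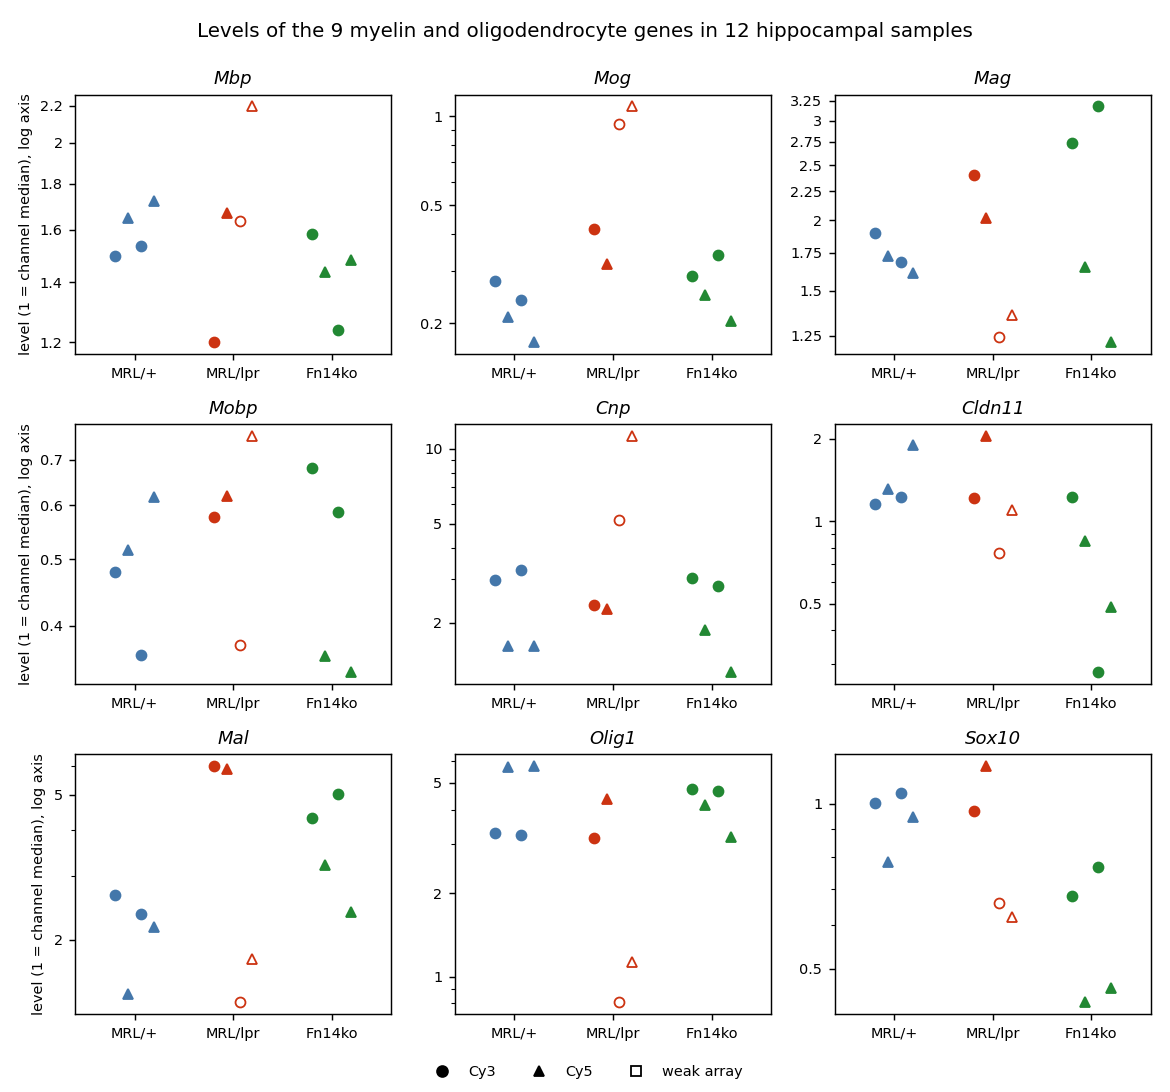
Levels of the 9 genes in each of the 12 samples, as multiples of the channel median on a log axis, by phenotype; circles are Cy3 samples, triangles Cy5 samples and open symbols the 2 MRL/lpr samples of the weak array. The open symbols are the highest points for Mog and Cnp and the lowest for Olig1, while Mal is 5.98 and 5.88 in the other MRL/lpr samples.

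The remaining genes did not pass the threshold between MRL/lpr and MRL/+ in either set. *Mbp* was 1.20 to 2.20 in MRL/lpr and 1.50 to 1.72 in MRL/+, with a log2 fold change of 0.03 (SE 0.21, adjusted p = 0.908). *Mag* was 1.24 to 2.41 and 1.62 to 1.90, with -0.03 (adjusted p = 0.942) in the 12 samples and 0.51 (SE 0.22, adjusted p = 0.126) in the 10 without a block. *Mobp*, averaged over its probes, differed by 0.22 (adjusted p = 0.622) and *Cldn11* by -0.19 (adjusted p = 0.751). *Sox10* differed by -0.18 (adjusted p = 0.614) with 12 samples and by 0.35 (adjusted p = 0.319) with 10.

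The second comparison sets MRL/lpr against the mice labelled Fn14ko, which carry the same *Fas* mutation. With all 12 samples none of the 9 genes passed the threshold (0 by limma). Differences are given as MRL/lpr over Fn14ko. At an unadjusted limma p under 0.05 there were 3 (*Mog*, *Cldn11* and *Olig1*), beside 36.2% of all genes. The exact permutation test, which passes only where the groups do not overlap, gave 0 of the 9, beside 21.5% of all genes. After adjustment 3.98% of all genes were called (2.21% higher and 1.77% lower in MRL/lpr). *Mog* came nearest, at 0.290, 0.250, 0.341 and 0.204 in the mice labelled Fn14ko. Its log2 fold change was 1.19 (SE 0.39, adjusted p = 0.0861), and it was -0.27 (adjusted p = 0.644) with no filter on dim spots. Without MRL/lpr replicate 1 it was 1.45 (adjusted p = 0.0227) and without replicate 2 it was 1.47 (adjusted p = 0.0171). Leaving out replicate 1 also brought *Cnp* (1.38, adjusted p = 0.0361) and *Olig1* (-1.47, adjusted p = 0.0331) past the threshold, and leaving out replicate 2 *Olig1* (-1.53, adjusted p = 0.0216). With single samples left out, between 40 and 4298 of 8864 genes were called in this comparison, compared with 353 with all 12. The median of the 9 was 0.26, compared with 0.03 over all genes.

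Without the weak array limma again gave 0 calls among the 9 genes in this comparison, where 9.12% of all genes were called (4.09% higher and 5.03% lower in MRL/lpr). At an unadjusted limma p under 0.05 there were 3, *Cldn11*, *Mal* and *Sox10*, beside 23.3% of all genes. *Sox10* lay closest to the threshold. Its level was 3.66 and 4.40 in MRL/lpr, with mice labelled Fn14ko at 2.69, 1.72, 3.13 and 1.85, without overlap, and the log2 fold change was 0.82 (SE 0.23, adjusted p = 0.0546). With the spots of the 12-sample set and the same 10 samples, it was 0.91 (adjusted p = 0.0299), and with the array as a random block the adjusted p was 0.0165. The random-block fit called 2847 of 17936 genes in this comparison. *Mal* also did not overlap, at 22.6 and 22.1 against 17.1, 12.7, 20.5 and 9.56, with a log2 fold change of 0.64 (SE 0.26, adjusted p = 0.171). These 2 genes without overlap stand beside 37% of all genes. *Cldn11* had the largest difference of the 9, 1.28 (SE 0.48, adjusted p = 0.134), with overlapping groups.

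The last comparison sets the mice labelled Fn14ko, which carry the *Fas* mutation too, against MRL/+. In the 12-sample fit 0 of the 9 genes were called by limma, where 0.519% of all genes were (0.0451% higher and 0.474% lower). At an unadjusted limma p under 0.05 there were 2, *Cldn11* and *Sox10*, beside 15.3% of all genes, and by the exact permutation test 1, *Sox10*. The *Sox10* level was 0.678, 0.435, 0.767 and 0.462 with the label Fn14ko and 1.00, 0.782, 1.05 and 0.945 in MRL/+. All 4 MRL/+ samples lay above all 4 of the others, the only such gene of the 9, and 19.9% of all genes were likewise without overlap and so past the permutation test. The log2 fold change was -0.72 (SE 0.26, adjusted p = 0.200, limma), and the exact permutation test gave p = 0.0286. With no filter on dim spots it was 0.19 (adjusted p = 0.857). *Cldn11* was 1.22, 0.845, 0.280 and 0.484 in the mice labelled Fn14ko, with replicates 3 and 4, which shared an array, the lower, and 1.16 to 1.89 in MRL/+. Its log2 fold change was -1.16 (SE 0.42, adjusted p = 0.199). The median of the 9 was -0.06, compared with -0.16 over all genes.

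Without the weak array, which holds no sample of this comparison, genes passed the threshold, and which ones depended on the spots used for scaling. Over the spots valid in the 10 samples, *Mal* was higher in the mice labelled Fn14ko by 1.03 (SE 0.21, adjusted p = 0.0110) and *Mog* by 0.51 (SE 0.15, adjusted p = 0.0383), and the groups of both overlapped. These 2 of 9 stand beside 21.1% of all genes called (10% higher and 11.1% lower), and the 0 genes without overlap beside 18.5%. With the array as a random block the adjusted p was 0.00234 for *Mal* and 0.0115 for *Mog*, and *Mag* (0.49, adjusted p = 0.0215) and *Sox10* (-0.47, adjusted p = 0.0395) passed as well. That random-block fit called 6412 of the 17936 genes in this comparison. *Mal* was higher by 0.94 within Cy3 and 1.11 within Cy5, and *Mog* by 0.33 within Cy3, with 2 samples against 2. Over the spots of the 12-sample set, *Mal* kept its call at 0.78 (adjusted p = 0.0132), *Mog* did not pass, and *Sox10* (-0.72, adjusted p = 0.0144) and *Cldn11* (-1.16, adjusted p = 0.0382) did. Over the 10-sample spots these last 2 genes stood at -0.47 (adjusted p = 0.0977) and -0.91 (adjusted p = 0.115). The same 8 samples were scaled in both, and for a gene read by 1 probe only the channel median it was divided by changed. *Mal*, *Sox10* and *Cldn11* therefore stood higher over the 10-sample spots by an equal amount. *Mog* moved by that amount too, from 0.26 over the 12-sample spots to 0.51. The median of all genes was -0.07 over the 17936 genes of one set and -0.16 over the 8864 of the other. Against MRL/+, *Mal* was thus called in the mice labelled Fn14ko under both scalings of the 10 samples, as it was in MRL/lpr, where it stood at 1.50 (adjusted p = 0.00154) over the 12-sample spots. These comparisons share the MRL/+ samples.

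**Figure D2:**
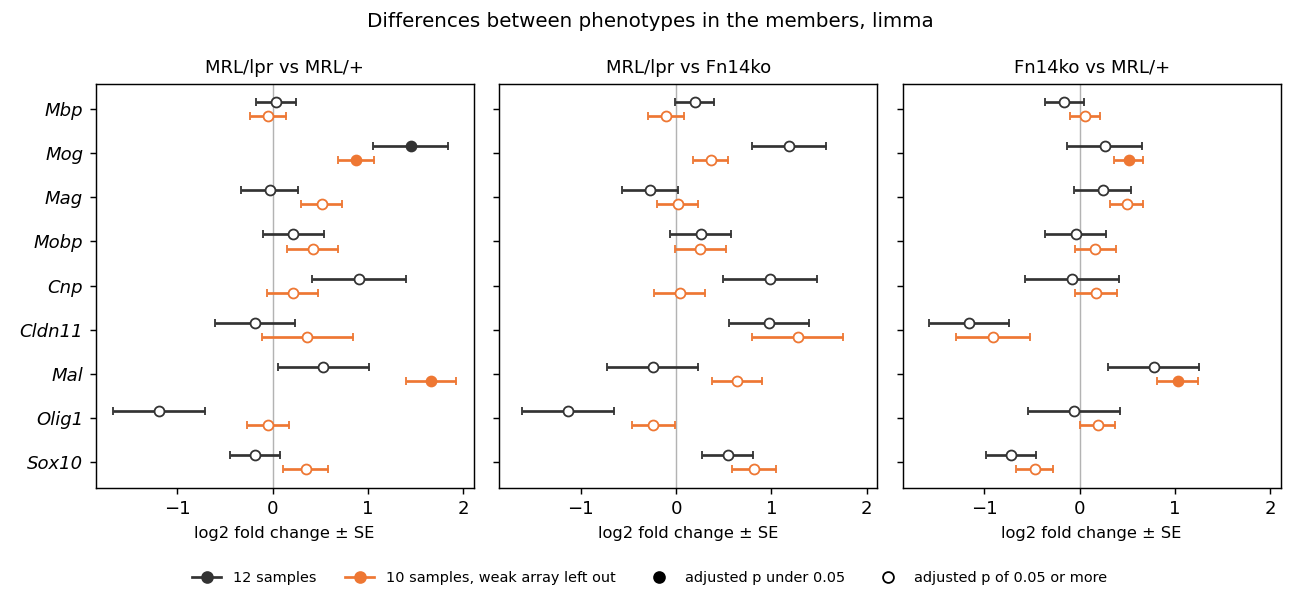
Log2 fold changes (points) with their standard errors (bars) from limma for the 9 genes in the 3 comparisons, with 12 samples in black and with the 10 samples outside the weak array in orange; filled points have an adjusted p under 0.05. Mog is filled in the first comparison in both sets, and Mal in the first and the last in the 10 samples.

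The 3 *Mobp* probes were also read one by one. Outside the weak array the last probe was at 2.68 and 2.83 in MRL/lpr. Its level was 3.20, 1.81, 3.43 and 2.04 with the label Fn14ko and 1.74, 0.923, 1.47 and 1.23 in MRL/+. All 6 samples with the *Fas* mutation lay above all 4 MRL/+ samples, of which 3 were well above background. Of the 23488 probes in these 10 samples, 13.2% likewise had MRL/lpr wholly above MRL/+ and 8.74% had the label Fn14ko wholly above it. In a fit over probes the difference from MRL/+ was 1.08 for MRL/lpr (SE 0.22, adjusted p = 0.00952) and 0.95 for the mice labelled Fn14ko (SE 0.18, adjusted p = 0.00687), and it was above 0 within Cy3 (0.74 and 1.05) and within Cy5 (1.41 and 0.85). In that fit 6.09% and 10.4% of all probes were called higher, and both differences are taken from the same MRL/+ samples. The first probe was at 1.68 and 1.83 in MRL/lpr, 2.20, 1.05, 1.35 and 0.695 with the label Fn14ko and 1.94, 1.89, 1.39 and 2.59 in MRL/+. Its differences from MRL/+ were -0.12 (adjusted p = 0.838) and -0.65 (adjusted p = 0.143). The difference between the probes was not tested. With 12 samples the last probe did not pass (0.90, adjusted p = 0.0757, and 0.70, adjusted p = 0.293). The middle probe was dim, at 2.29 to 5.73 times background in these samples, and did not pass. The *Mobp* values given above are means over these probes.

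The 3 *Mbp* probes were read in the same way. The first probe, on chromosome 18 from 82691469 to 82691528 (mm9), lies before the second, which starts at 82727929. Its level in the 10 samples was 0.0868 and 0.115 in MRL/lpr, 0.139, 0.145, 0.0742 and 0.132 with the label Fn14ko and 0.146, 0.510, 0.233 and 0.465 in MRL/+. The log2 difference from MRL/+ was -1.59 in MRL/lpr (SE 0.40, adjusted p = 0.0231) and -1.34 in the mice labelled Fn14ko (SE 0.33, adjusted p = 0.0172). The probe stood only 2.61 to 7.48 times above background and was well above it in 6 of 12 samples, and its highest levels, 0.510 and 0.465, were in the MRL/+ Cy5 samples with high negative-control signal. Within Cy3 the differences were -1.09 and -0.86, and within Cy5 -2.09 and -1.81. The second *Mbp* probe was at 6.61 and 8.77 in MRL/lpr, 7.58 to 10.3 among mice labelled Fn14ko and 5.97 to 8.46 in MRL/+, with differences of 0.08 and 0.30 from MRL/+ that did not pass. The last one, which spans 2305 bases of the genome with its 60 bases, differed by -0.12 and -0.44 and did not pass either.

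**Figure D3:**
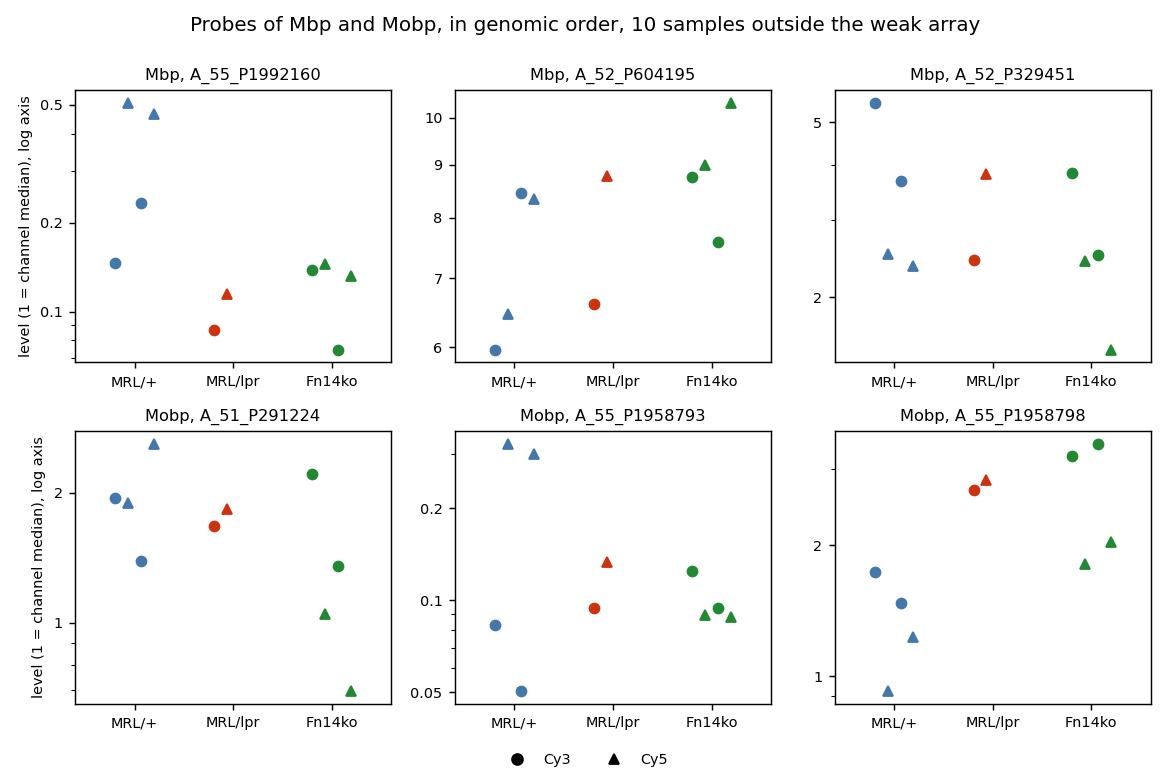
Levels of the 3 Mbp probes and the 3 Mobp probes in the 10 samples outside the weak array, in genomic order, as multiples of the channel median on a log axis; circles are Cy3 and triangles Cy5 samples. For the last Mobp probe the MRL/+ samples, 0.923 to 1.74, lie below all others, and for the first Mbp probe the MRL/+ Cy5 samples are highest, at 0.510 and 0.465.

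Dye separated the samples of MRL/+ and those of the mice labelled Fn14ko for several of these genes. In the 10 samples the Cy5 minus Cy3 term was -0.94 for *Cnp* (SE 0.20, adjusted p = 0.0261), -0.69 for *Mag* (adjusted p = 0.0310), -0.69 for *Mal* (adjusted p = 0.0435) and -0.62 for *Mog* (adjusted p = 0.0284). The median term over all genes was 0.15. *Cnp* in MRL/+ shows the pattern, at 11.4 and 12.8 in the Cy3 samples and 4.41 and 4.97 in the Cy5 samples. Each phenotype held as many Cy3 as Cy5 samples, and dye was a term of the fits over 12 and over 10 samples. *Mbp*, *Olig1*, *Cldn11*, *Mobp* and *Sox10* had dye terms of 0.03, 0.09, 0.19, -0.27 and -0.50 that did not pass.

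The 9 genes did not vary as 1 block. Over the 10 samples the closest pairs were *Mog* with *Mal* (r = 0.918), *Mog* with *Mag* (0.846), *Mag* with *Mal* (0.814) and *Mag* with *Cnp* (0.799), 4 genes that share a negative dye term. *Mbp* had r of -0.01 with *Mog* and -0.03 with *Mag*, and *Cldn11* -0.04 with *Mal*. With the weak array included, *Mog* and *Mal* had r of -0.19 and *Mog* and *Olig1* -0.89. These correlations run over samples that share arrays, dye and phenotype, and are given as a description. The mean of the 9 centred log2 values, which served as their common profile, was 0.25 and 0.40 in MRL/lpr, 0.36, -0.14, 0.17 and -0.45 with the label Fn14ko and 0.10, -0.54, 0.06 and -0.21 in MRL/+. In the last 2 phenotypes each Cy3 sample lay above each Cy5 sample.

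The genes most like that profile over the 10 samples were *Ache* (r = 0.967), the acetylcholine-degrading enzyme, then *Ccdc126* (0.893) and *Cotl1* (0.890). Also among the first 10 were *Adi1* (0.885), *Ndrg1* (0.881), *Trf* (0.881), *Ppp1r14b* (0.881) and *Macrod1* (0.878), and 2 transcripts without a gene symbol. *Ndrg1* and *Trf*, the latter encoding the iron carrier transferrin, are known oligodendrocyte genes. Over the 12 samples *Ndrg1* came first (0.814), followed by *Plekhh1* (0.783), the choroid plexus gene *Ttr* (0.761), *Lgals3bp* (0.746), *Entpd6* (0.725), *Phlpp1* (0.693), *Med7* (0.692), *Bcas1* (0.689), *Cotl1* (0.688) and *Gpr37* (0.659). *Ndrg1* and *Cotl1* were in both lists.

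Other oligodendrocyte genes were read from 4 lists, of other myelin proteins, enzymes and carriers of myelin lipid and iron, lineage transcription factors and precursor markers. Counts in these lists, and in those of other cell types below, stand beside the shares of all genes called. With 12 samples these were 9.17%, 3.98% and 0.519% in the 3 comparisons, in the order above. With the 10 samples they were 15.7%, 9.12% and 21.1%. Among 19 other myelin proteins, 13 were measured in the 12 samples and none passed between MRL/lpr and MRL/+, with 6 above 0 and 7 below, or between the mice labelled Fn14ko and MRL/+. The brightest of them, *Ermn* and *Plekhb1*, stood at -2.36 (adjusted p = 0.0701) and -0.44 (adjusted p = 0.289) between MRL/lpr and MRL/+, and at -0.57 (adjusted p = 0.332) and -0.27 (adjusted p = 0.524) in the 10 samples. *Jam3*, a junctional adhesion molecule, was lower in MRL/lpr than in the mice labelled Fn14ko (-1.46, adjusted p = 0.0245, and -1.21, adjusted p = 0.0121, in the 10 samples). The 12-sample call was lost without any single 1 of the 4 mice labelled Fn14ko and with the array as a random block. All 19 were measured in the 10 samples, and 4 were higher and 1 lower in MRL/lpr than in MRL/+, beside 6.11% and 9.61% of all genes. The higher ones included *Gsn*, an actin-severing protein (1.25, adjusted p = 0.00103), *Evi2a* (1.12, adjusted p = 0.0208) and *Gpr37* (0.98, adjusted p = 0.00938), and the lower one was *Nfasc*, a protein of the node of Ranvier (-0.57, adjusted p = 0.0368), named here after its value was seen. With all 12 samples *Gsn* stood at -0.08 (adjusted p = 0.933), *Gpr37* at 0.23 (adjusted p = 0.632) and *Nfasc* at -0.22 (adjusted p = 0.604), and *Evi2a* was not measured. Against MRL/+, 3 were higher in the mice labelled Fn14ko, *Jam3* (1.32, adjusted p = 0.00289), *Evi2a* (0.99, adjusted p = 0.0143) and *Gsn* (0.81, adjusted p = 0.00507). Of all genes, 10% were called higher in that comparison.

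None of the 6 lipid and iron genes measured in the 12 samples passed in any comparison. The brightest, *Apod* and *Enpp2*, differed between MRL/lpr and MRL/+ by -0.43 (adjusted p = 0.601) and -0.81 (adjusted p = 0.391). The 10 samples gave values for 11 of 12, of which 4 were higher in MRL/lpr than in MRL/+, beside 6.11% of all genes. The 4 were *Ugt8a*, which makes the myelin lipid galactocerebroside (1.23, adjusted p = 0.0166), *Apod* (1.02, adjusted p = 0.00838), *Trf* (0.92, adjusted p = 0.0479) and *Enpp2* (0.81, adjusted p = 0.0474). In the 10 samples 10 of the 11 lay above 0 (median 0.55), whereas in the 12 samples 1 lay above 0 and 5 below (median -0.36). *Enpp2* and *Trf* are also made by the choroid plexus, whose list summed to 44.3 and 143 in these MRL/lpr samples and 3.89 to 6.78 in MRL/+. In the 12-sample set the 2 samples of the weak array had choroid plexus sums of 15.6 and 41.7. Their sums of the lipid and iron genes were the lowest of all, at 9.46 and 12.7. The part of the choroid plexus in these values was not tested. *Ugt8a* (1.31, adjusted p = 0.0174) and *Apod* (0.74, adjusted p = 0.0456) were also higher than in the mice labelled Fn14ko, beside 4.09% of all genes. *Car2*, a carbonic anhydrase, was the only one higher in the mice labelled Fn14ko than in MRL/+ (1.50, adjusted p = 0.0154).

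Of 9 lineage transcription factors, 5 were measured in the 12 samples. *Zfp536*, a zinc finger repressor, was higher in MRL/lpr than in MRL/+ (1.29, adjusted p = 0.0266) and than in the mice labelled Fn14ko (1.29, adjusted p = 0.0370). *Tcf7l2*, a Wnt effector of oligodendrocyte differentiation that thalamic neurons also express, was higher in MRL/lpr than in the mice labelled Fn14ko (1.99, adjusted p = 0.0330). Each of these calls was lost when some single samples were left out. *Zfp536* against MRL/+ was not called without MRL/lpr replicate 3 or any 1 of the MRL/+ samples, and neither gene was called against the mice labelled Fn14ko without MRL/lpr replicate 3 or 4 or any 1 of the 8 samples of the other phenotypes. With the array as a random block none of these 3 calls held. Outside the weak array *Zfp536* was 0.93 above MRL/+ (adjusted p = 0.0181) but 0.46 above the mice labelled Fn14ko (adjusted p = 0.245). *Tcf7l2* was 1.05 above those mice (adjusted p = 0.0115), and it was lower in them than in MRL/+ (-1.73, adjusted p = 0.000576) and in MRL/lpr than in MRL/+ (-0.68, adjusted p = 0.0490). *St18* was higher in MRL/lpr than in MRL/+ (2.45, adjusted p = 0.0353) and than in the mice labelled Fn14ko (2.78, adjusted p = 0.0302).

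None of the 6 precursor markers measured in the 12 samples passed. *Bcas1* and *Gpr17*, the brightest of them and both markers of newly forming oligodendrocytes, differed between MRL/lpr and MRL/+ by 0.29 (adjusted p = 0.554) and 1.12 (adjusted p = 0.0710). All 10 were measured in the 10 samples, and *Tnr* (-1.05, adjusted p = 0.0155) and *Lhfpl3* (-0.65, adjusted p = 0.0338) were lower in MRL/lpr than in MRL/+, beside 9.61% of all genes. In the 12 samples *Tnr* stood at 1.97 (adjusted p = 0.295) and *Lhfpl3* was not measured. *Lhfpl3* was also lower than in the mice labelled Fn14ko (-1.07, adjusted p = 0.00522). *Gpr17* (1.15, adjusted p = 0.0328) and *Pdgfra* (0.53, adjusted p = 0.0254), the receptor that marks precursors, were higher and *Tnr* (-0.71, adjusted p = 0.0287) lower in the mice labelled Fn14ko than in MRL/+. Of all genes, 10% were called higher and 11.1% lower there. Markers of Schwann cells, the myelinating cells of peripheral nerve, gave no measured gene in the 12 samples and 4 of 6 in the 10, of which none passed.

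**Figure D4:**
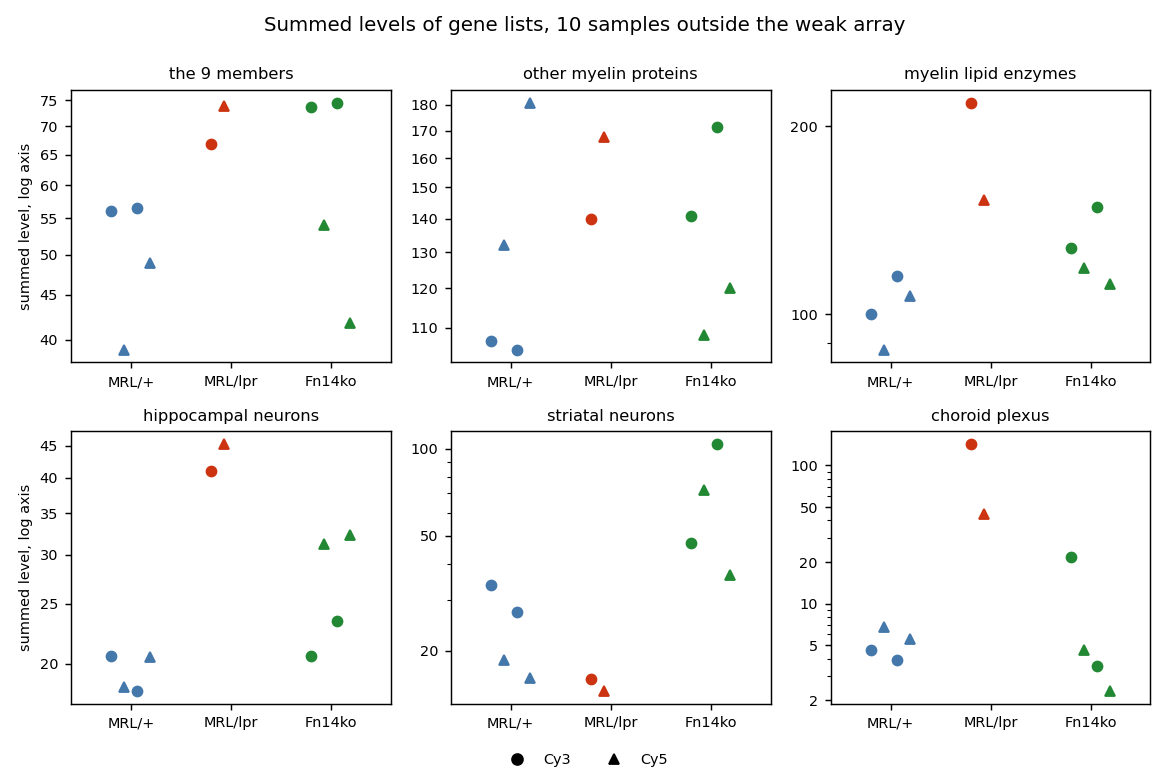
Summed levels of 6 gene lists in the 10 samples outside the weak array, on log axes, with circles for Cy3 and triangles for Cy5 samples. The hippocampal list is highest in MRL/lpr (40.9 and 45.4), the striatal list in Fn14ko (36.6 to 104) and the choroid plexus list in MRL/lpr (44.3 and 143). The 9 genes sum to 66.8 and 73.9 in MRL/lpr, 41.7 to 74.5 in Fn14ko and 38.9 to 56.6 in MRL/+.

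Other cell types were read beside the myelin genes in the same samples. Of 8 astrocyte markers, 7 were measured in the 12 samples. *Gfap*, the intermediate filament of astrocytes, was the only one called there. It was higher in MRL/lpr than in MRL/+ (2.26, adjusted p = 0.00296) and than in the mice labelled Fn14ko (1.39, adjusted p = 0.0329). In the 10 samples *Gfap* was higher too (2.32, adjusted p = 0.00136, and 1.32, adjusted p = 0.0331), and *Slc1a2* was lower in MRL/lpr than in MRL/+ (-0.75, adjusted p = 0.0218). *Gfap* (1.00, adjusted p = 0.0270) and *Aldh1l1* (0.69, adjusted p = 0.0403) were also higher in the mice labelled Fn14ko than in MRL/+. Among 10 neuronal markers, *Slc17a7*, the vesicular glutamate transporter of cortical and hippocampal neurons, was lower in MRL/lpr than in MRL/+ (-2.27, adjusted p = 0.00703). In the 10 samples *Slc17a7* (-1.39, adjusted p = 0.000752) and *Tubb3* (-0.81, adjusted p = 0.00975) were lower in that comparison. Both were also lower in the mice labelled Fn14ko than in MRL/+ in these samples (-1.07, adjusted p = 0.00174, and -0.49, adjusted p = 0.0306, limma). Of 6 microglial markers measured, *Cx3cr1* (-1.02, adjusted p = 0.0454) and *P2ry12* (-1.02, adjusted p = 0.0366) were lower in MRL/lpr than in MRL/+. In the 10 samples *P2ry12* was lower too (-0.64, adjusted p = 0.0177), and *Cx3cr1* stood at -0.49 (adjusted p = 0.114). *P2ry12* was also lower in MRL/lpr than in the mice labelled Fn14ko (-1.07, adjusted p = 0.0450, and -0.94, adjusted p = 0.00396, in the 10 samples, limma). In the 10 samples *Itgam* was higher in that comparison (0.86, adjusted p = 0.0308). None of the 3 endothelial markers measured in the 12 samples passed. In the 10 samples 3 of 7 were higher in the mice labelled Fn14ko than in MRL/+ and 1 was lower, beside 10% and 11.1% of all genes. The higher ones were *Esam* (1.39, adjusted p = 0.00552), *Ly6c1* (0.95, adjusted p = 0.0106) and *Slco1a4* (0.85, adjusted p = 0.0415). None passed between MRL/lpr and either other phenotype. In the 10 samples 1 of 6 thalamic markers, *Prkcd*, was higher in MRL/lpr than in MRL/+ (1.66, adjusted p = 0.00149) and 1, *Ramp3*, was lower (-1.72, adjusted p = 0.000376). Both differed the same way from the mice labelled Fn14ko (1.55, adjusted p = 0.00358, and -1.48, adjusted p = 0.00142, limma). *Adarb1* was higher in those mice than in MRL/+ (1.04, adjusted p = 0.0227). The part of these cell types in the values of the myelin genes was not tested.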

How the data were processed

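Hippocampal RNA of 12 mice, 4 of each phenotype, was hybridized in same-phenotype pairs to 6 arrays, with odd replicates in Cy3 and even ones in Cy5. Foreground and background intensity per spot from Agilent Feature Extraction 12.1, not normalized, was taken from the deposited array data, which also hold a processed signal. Probe coordinates there are in mm9. The paper states that both raw and normalized values were deposited. After the study's methods, background was subtracted, spots under 2 times background or flagged as outliers were removed, spots valid in all 12 samples (10877), or in the 10 outside the weak array (25621), were divided by the channel median, and the values of each gene were averaged over its spots, then its probes. Log2 values were fitted with limma 3.58.1 (R 4.3.3), with phenotype and dye as terms, a trended variance and Benjamini-Hochberg adjustment over all genes, at an adjusted p of 0.05. Fits over 10 samples used the same terms. Whether the mice came from separate litters is not given in the labels, and 2 samples share each array, so p-values measure the spread between these samples. "Well above background" is the scanner software's call.

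The genes named are the 9 genes with all their probes, up to 3 called genes per list and comparison with the largest change or, with none called, up to 2 of the highest mean level, the 10 genes most like the mean profile in each sample set, *Fas* and *Tnfrsf12a*. The 9 genes, the lists and the weak array were chosen with earlier results of these data known. The *Fas* level in the 10 samples was 0.106 and 0.145 in MRL/lpr, 0.165 to 0.233 in the mice labelled Fn14ko and 0.192 to 0.659 in MRL/+. Alternatives covered background correction, signal, filter, normalization, averaging, dye, array weights, blocks, the methods' heteroscedastic test (statmod 1.5.0 served the random block), single probes and each sample left out. The fit was also run on simulated data, and no value given here comes from that run. Figures were drawn with matplotlib 3.10.9.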

Additional observations from a re-analysis of the deposited data

How the results depend on the processing

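The number of arrays, 6, limits the precision, and the weak array holds 2 of the 4 MRL/lpr samples. Of 711 single-gene values under the alternatives, 576 kept their direction and their side of the threshold, 16 lost a call, 28 gained one and 91 changed sign, 1 of the last with an adjusted p under 0.05 (*Mag*, 0.51, adjusted p = 0.0475, for MRL/lpr over MRL/+ in the 10 samples with the array as a random block). *Mog* kept its sign between MRL/lpr and MRL/+ under all 13 alternatives that left out no single sample (0.71 to 1.68, adjusted p 0.0119 to 0.312) and passed in 7 of them. The array as a random block in the 10 samples was added after seeing the data.

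Of the 9 genes, 1 was called between MRL/lpr and MRL/+ with all 12 samples. The count was 0 with quantile normalization, with loess and Aquantile, with no filter on spots, with foreground of at least 3 times background, with the array as a random block, and with the methods' heteroscedastic test, unadjusted or after Benjamini-Hochberg adjustment. It was 2 with array weights and without the weak array on either set of spots (*Mog* and *Mal* each time), 3 in the 10 samples with the array as a random block (*Mog*, *Mag* and *Mal*), and 0 to 3 when single samples were left out. Comparing MRL/lpr with the mice labelled Fn14ko, the count of 0 was 2 with array weights (*Cldn11* and *Sox10*), 1 without the weak array on the same spots or with the array as a random block in the 10 samples (*Sox10* each time) and 0 to 3 with single samples left out. Between the mice labelled Fn14ko and MRL/+ the count of 0 was 3 with array weights and without the weak array on the same spots (*Cldn11*, *Mal* and *Sox10*), 2 without the weak array on the spots of the 10 samples (*Mog* and *Mal*), 4 in these with the array as a random block (*Mog*, *Mag*, *Mal* and *Sox10*) and 2 with the methods' unadjusted test (*Cldn11* and *Sox10*). The counts over all genes moved too, from 813 to between 0 and 5135, from 353 to between 0 and 3787 and from 46 to between 0 and 6412 in the 3 comparisons. With single samples left out the counts over all genes were 126 to 3467, 40 to 4298 and 0 to 126. The median of the 9 log2 fold changes was -0.52, -1.10 and 0.84 in the 3 comparisons with no filter on spots, and 0.37 between MRL/lpr and MRL/+ without the weak array on the spots of the 10 samples, with or without the array as a random block. With single samples left out it was 0.01 to 0.21, 0.11 to 0.47 and -0.19 to 0.14. With no filter on spots, only the channel median changed for a gene read by 1 probe, so such genes moved by an equal amount within a comparison. For MRL/lpr over Fn14ko, *Cnp* went from 0.99 to -0.47 and *Sox10* from 0.54 to -0.92. The sign changes of these genes in that setting are thus 1 shift per comparison. The cause of the other changes was not tested.

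Replicate numbers did not pair the samples: same-numbered samples of different phenotypes correlated in their deviations with r from -0.395 to 0.503, and 2 of 12 samples correlated best with their own number in both other phenotypes. With the replicate number as a block, 0 of the 9 genes were called between MRL/lpr and MRL/+ (*Mog* 1.45, adjusted p = 0.0582).

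The log2 fold changes that changed sign were not called in either setting, apart from *Mag* as above. With estimated array weights, values were, for MRL/lpr over MRL/+, -0.21 for *Mbp*, 0.37 for *Mag*, -0.023 for *Cnp*, 0.11 for *Cldn11* and 0.079 for *Sox10*, and, for MRL/lpr over Fn14ko, -0.0088 for *Mbp*, 0.30 for *Mag*, 0.72 for *Mal* and 0.029 for *Olig1*. With foreground of at least 3 times background, values were, for Fn14ko over MRL/+, 0.0033 for *Mbp* and 0.66 for *Mobp*. With loess and Aquantile normalization, values were, for MRL/lpr over MRL/+, 0.034 for *Mag* and -0.10 for *Mobp*, and, for MRL/lpr over Fn14ko, -0.13 for *Mobp*, and, for Fn14ko over MRL/+, 0.029 for *Mobp*. With log2 values averaged over probes, values were, for MRL/lpr over MRL/+, -0.13 for *Mbp*. With no filter on spots, values were, for MRL/lpr over MRL/+, -0.52 for *Mbp*, -0.26 for *Mobp* and -0.0067 for *Mal*, and, for MRL/lpr over Fn14ko, -1.24 for *Mbp*, -0.27 for *Mog*, -1.10 for *Mobp*, -0.47 for *Cnp*, -0.48 for *Cldn11* and -0.92 for *Sox10*, and, for Fn14ko over MRL/+, 0.72 for *Mbp*, 0.83 for *Mobp*, 0.84 for *Cnp*, 0.86 for *Olig1* and 0.19 for *Sox10*. With normexp background correction, values were, for MRL/lpr over MRL/+, -0.076 for *Mbp*. With the scanner software's processed signal, values were, for MRL/lpr over MRL/+, -0.24 for *Mbp* and 0.11 for *Mag*, and, for MRL/lpr over Fn14ko, -0.13 for *Mbp*, 0.049 for *Mag*, -0.16 for *Mobp* and 0.047 for *Mal*, and, for Fn14ko over MRL/+, 0.40 for *Mobp* and 0.14 for *Olig1*. With quantile normalization, values were, for MRL/lpr over MRL/+, 0.037 for *Mag* and -0.12 for *Mobp*, and, for MRL/lpr over Fn14ko, -0.16 for *Mobp*, and, for Fn14ko over MRL/+, 0.035 for *Mobp*. Without the weak array on the same spots, values were, for MRL/lpr over MRL/+, -0.18 for *Mbp*, 0.35 for *Mag*, 0.20 for *Cldn11* and 0.18 for *Sox10*, and, for MRL/lpr over Fn14ko, -0.013 for *Mbp*, 0.11 for *Mag* and 0.73 for *Mal*. Without the weak array on the spots of the 10 samples, with or without the array as a random block, values were, for MRL/lpr over MRL/+, -0.045 for *Mbp*, 0.51 for *Mag*, 0.37 for *Cldn11* and 0.35 for *Sox10*, and, for MRL/lpr over Fn14ko, -0.10 for *Mbp*, 0.019 for *Mag* and 0.64 for *Mal*, and, for Fn14ko over MRL/+, 0.058 for *Mbp*, 0.17 for *Mobp*, 0.17 for *Cnp* and 0.19 for *Olig1*. For single probes in the 12-sample fit over probes, an alternative chosen after seeing the data, values were -0.51 for the first *Mobp* probe and -0.50 for the last *Mbp* probe for MRL/lpr over MRL/+, and 0.70 for the last *Mobp* probe and 0.044 for the second *Mbp* probe for Fn14ko over MRL/+. With single samples left out, *Mbp* ranged from -0.082 to 0.16 and *Mag* from -0.20 to 0.21 for MRL/lpr over MRL/+, *Mal* from -0.67 to 0.26 for MRL/lpr over Fn14ko, and *Mobp* from -0.25 to 0.14, *Cnp* from -0.19 to 0.11 and *Olig1* from -0.19 to 0.14 for Fn14ko over MRL/+. *Sox10* had no value with foreground of at least 3 times background.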
